A study of Rattus norvegicus with 30 samples.

Results

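The genes described here carry rat symbols made of Zfp and a number, with or without a closing letter, the rodent naming scheme for zinc finger proteins. Zfp36, which shares the prefix but encodes a messenger-binding protein of another finger type, was left out. Probes were matched to symbols through the transcript accession on the array, and the brightest probe stood for each gene. The reference table listed 312 such symbols, of which 157 had a probe on the array (192 probes). A gene entered the tests when at least 1 group had 4 or 5 arrays with its probe flagged well above background, which left 141 Zfp genes among 18333 genes tested in all.

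Transcripts were measured with 30 one-colour Agilent arrays in left ventricles of Sprague Dawley rats, all male and 16 to 18 weeks of age, in 6 groups of 5 biological replicates. Their food was chow or a diet high in sucrose, which was fed over 8 to 10 weeks to bring on insulin resistance, and all were anesthetized with chloral hydrate. In each diet, hearts were frozen without perfusion, or cooled on excision and then worked outside the body for 60 min. In all perfused groups the buffer contained hydroxybutyrate at 10 mmol/L, propionate at 2 mmol/L and acetoacetate at 1 mmol/L, plus either glucose or mannitol, a sugar alcohol that served as osmotic control, at 25 mmol/L. Excision, cooling, the change from blood to buffer and work ex vivo therefore cannot be told apart in any comparison of perfused with non-perfused hearts.

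Most Zfp proteins hold a row of zinc fingers of the C2H2 type, each a short fold around a zinc ion that reads a few bases of DNA. A large share also carries a KRAB domain, which recruits the co-repressor TRIM28 and, through it, enzymes that compact chromatin, and many such genes lie in clusters that arose by duplication. Their proteins are best known for silencing retroelements and for holding imprinted marks, while other members bind promoters as activators, act on RNA and ribosomes, or steer the differentiation of fat, nerve and muscle. The transcripts of many members are scarce.

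Values are log2 processed signals minus the 75th percentile of their array, so 0 marks that percentile and a step of 1 is a doubling; values of different probes were not set against each other. The share of probes well above background ranged over arrays from 48.8% to 75.4%. Negative control spots had an SD above 8 intensity units on 4 arrays, namely replicate 2 of chow non-perfused, replicates 1 and 5 of sucrose non-perfused and replicate 5 of sucrose mannitol hearts. All groups were present on each of 4 slides, and sucrose mannitol replicate 1 had a slide to itself. Slides have 2 rows of arrays: row 1 held the non-perfused and chow mannitol hearts, row 2 the glucose hearts and 4 of 5 sucrose mannitol hearts. Of the comparisons of perfused with non-perfused hearts, that of chow mannitol lies within row 1, and in the other 3 row and perfusion cannot be told apart. The same holds for row and glucose in chow hearts. All 10 cardiomyocyte markers (Myh6 and Tnnt2 among them) were measured and none was called in the averaged comparison (median -0.09). In single comparisons 1 of the 10 was called, Pln, which fell with sucrose mannitol, where the list had a median of -0.25.

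In perfused hearts Zfp transcripts were lower more often than higher. Against non-perfused hearts of the same diet, with chow rats first and mannitol before glucose, 24, 32, 28 and 26 of the 141 genes fell and 5, 4, 6 and 5 rose (limma, adjusted p under 0.05 over all genes). Of all genes tested, 3.65%, 4.04%, 5.67% and 3.14% fell and 4.83%, 5.47%, 5.53% and 5.54% rose. Zfp falls therefore lay above the share of genes at large in each comparison. Zfp rises (3.55%, 2.84%, 4.26% and 3.55%, on 4 to 6 genes each) lay below it. The median change of the Zfp genes was -0.14, -0.21, -0.16 and -0.11 on the log2 scale, against -0.01, -0.05, -0.04 and -0.03 for all genes. With the 4 perfused groups averaged, 49 Zfp genes fell and 11 rose, where 12.3% of all genes fell and 10% rose. The mannitol and glucose comparisons of a diet share their non-perfused arrays, so their counts are not independent.

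The filter admits a gene through its non-perfused arrays alone, which favours falls. Among the 110 Zfp genes that met this threshold in each of the 6 groups, 17, 21, 20 and 19 fell and 4, 3, 6 and 4 rose, while 4%, 4.29%, 6.65% and 3.48% of the 14757 genes of that kind fell and 5.27%, 6%, 5.85% and 5.77% rose. The 5 perfused values lay wholly below the 5 non-perfused values for 34, 32, 24 and 26 Zfp genes (4.51%, 4.26%, 4.87% and 3.39% of all genes) and wholly above them for 6, 5, 5 and 3 (5%, 5.18%, 4.36% and 4.75%). With slide as a fixed block 28, 42, 34 and 33 Zfp genes fell and 5, 4, 8 and 5 rose, where 4.95%, 6.38%, 7.38% and 5.35% of all genes fell and 6.12%, 6.75%, 5.93% and 6.92% rose. With normexp background correction 15, 16, 17 and 19 fell and 2, 2, 3 and 2 rose, where 1.57%, 1.57%, 2.17% and 1.53% of all genes fell and 3.03%, 3.72%, 3.1% and 3.09% rose.

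In the authors' deposited values most of these calls were lost, and 2, 6, 2 and 1 Zfp genes fell (1.42%, 4.26%, 1.42% and 0.709%) and 0, 1, 1 and 0 rose. Of all genes 0.273%, 0.644%, 0.251% and 0.202% fell there and 1.7%, 1.65%, 2% and 2.24% rose. Counted in both directions, the share of Zfp genes called was therefore below that of all genes in 3 of the 4 comparisons, chow glucose being the exception. With the perfused groups averaged, 16 Zfp genes fell and 3 rose in these values (11.3% and 2.13%), against 1.59% and 4.64% of all genes. The Zfp median minus that of all genes was -0.16, -0.19, -0.11 and -0.10 in the 4 comparisons.

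Blood cell transcripts changed with perfusion too. In the averaged comparison 3 of 4 red cell markers fell (Hba-a1, Hbb and Alas2). The log2 of the summed signal of all 4 ran from 8.74 to 9.43 in non-perfused and from 2.48 to 6.26 in perfused hearts. Of 3 neutrophil markers tested 2 fell (S100a8 and S100a9), while all 5 macrophage markers rose. Of 3 sympathetic neuron markers 1 fell (Npy), with a list median of -0.05. Of 5 endothelial markers 1 rose (Cldn5) and of 5 fibroblast markers 1 rose (Dcn), while 0 of 5 smooth muscle and pericyte and 0 of 3 atrial markers were called (atrial median -1.08), and 0 of 3 fat markers were tested. The part of these in the Zfp changes was not tested, and in bulk tissue fewer cells of a type and less RNA per cell cannot be told apart.

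**Figure D1:**
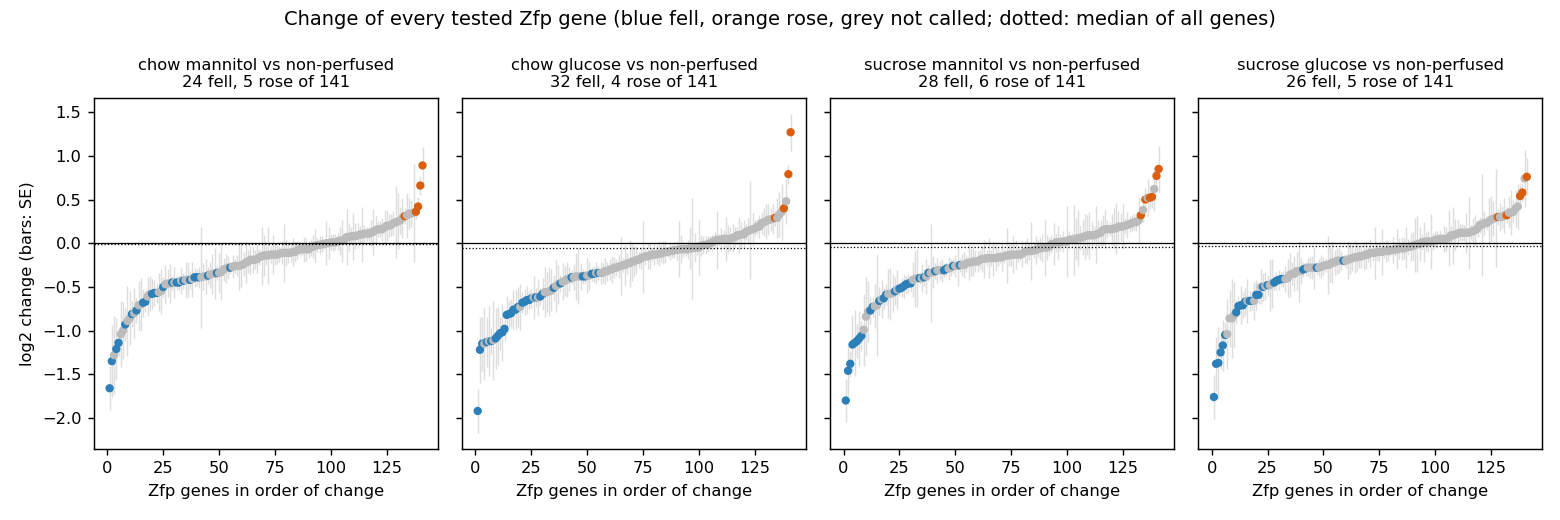
Log2 change of every tested Zfp gene in each perfused group, taken against non-perfused hearts of that diet and ordered by size, with bars for the standard error (SE) that limma gave. Called falls (24, 32, 28 and 26, blue) fill the left end and called rises (5, 4, 6 and 5, orange) the right end, and the dotted line is the median of all 18333 genes.

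The bases around the transcription start of the genes that moved are shown first, and their base composition is described after them, with no test. RefSeq start-site windows of assembly GRCr8, running from 250 bases before to 50 bases after the start, were matched for 116 of the 141 genes. Capitals mark GGGCGG, the core of sites for the Sp and Klf factors, and TGACG, the shorter form of the cyclic AMP response element, on either strand and without overlap between them. The strongest fall, Zfp472 (chr7:12724877-12725176, plus strand), and the next called in every comparison, Zfp94 (chr1:89007466-89007765, minus strand), are set beside the strongest rises, Zfp217 (chr3:179321644-179321943, minus strand) and Zfp281 (chr13:50647572-50647871, plus strand).
Zfp472: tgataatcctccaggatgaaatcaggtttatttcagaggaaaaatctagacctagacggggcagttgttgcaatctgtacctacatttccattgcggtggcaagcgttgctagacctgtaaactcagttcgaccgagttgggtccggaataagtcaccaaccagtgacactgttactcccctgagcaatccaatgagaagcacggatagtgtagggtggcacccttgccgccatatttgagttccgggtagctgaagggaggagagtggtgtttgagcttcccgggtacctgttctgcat
Zfp94: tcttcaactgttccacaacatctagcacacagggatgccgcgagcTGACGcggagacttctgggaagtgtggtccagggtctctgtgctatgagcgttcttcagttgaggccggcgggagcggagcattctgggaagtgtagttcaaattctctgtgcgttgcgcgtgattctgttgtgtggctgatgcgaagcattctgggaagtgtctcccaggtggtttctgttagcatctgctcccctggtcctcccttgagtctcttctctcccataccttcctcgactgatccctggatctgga
Zfp217: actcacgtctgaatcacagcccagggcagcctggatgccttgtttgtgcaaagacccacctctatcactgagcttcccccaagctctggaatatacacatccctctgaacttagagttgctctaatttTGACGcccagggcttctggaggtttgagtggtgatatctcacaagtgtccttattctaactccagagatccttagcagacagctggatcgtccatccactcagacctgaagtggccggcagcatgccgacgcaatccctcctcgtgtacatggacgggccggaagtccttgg
Zfp281: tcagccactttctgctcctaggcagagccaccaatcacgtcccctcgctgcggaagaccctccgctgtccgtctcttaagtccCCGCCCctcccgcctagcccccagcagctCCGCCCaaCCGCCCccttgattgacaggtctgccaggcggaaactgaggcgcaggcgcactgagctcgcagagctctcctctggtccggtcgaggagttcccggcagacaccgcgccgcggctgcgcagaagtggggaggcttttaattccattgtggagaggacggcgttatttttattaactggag

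The window of Zfp472 held neither motif, with 10 CpG dinucleotides and 49.7% G and C bases, and that of Zfp94 held 1 TGACG with 13 CpG dinucleotides. The window of Zfp281 held GGGCGG at 3 places and 23 CpG dinucleotides, and that of Zfp217 held 1 TGACG, 1 or more TGANTCA and 9 CpG dinucleotides. Over the 41 windows of genes that fell in the averaged comparison the median was 11 CpG dinucleotides and 52.3% G and C. The 66 windows of genes not called had medians of 21.5 and 62.3%, and the 9 of risen genes 20 and 60.7%. Over the 9289 windows of all tested genes the medians were 19 and 60%, and over all 27457 windows listed they were 7 and 52.3%. GGGCGG stood in 34.1% of the fallen, 59.1% of the uncalled and 22.2% of the risen Zfp genes, in 57.8% of the windows of all tested genes and in 34.9% of all windows. TGACG was in 29.3%, 31.8% and 44.4% of these 3 sets of Zfp genes, in 30.1% of tested genes and in 22% of all windows. The full element TGACGTCA was in 2.44% of fallen, 4.55% of uncalled and 0% of risen genes, in 2.92% of tested genes and in 1.91% of all windows. TGANTCA, the AP-1 site, was in 2.44%, 4.55% and 11.1% (1 of 9) of these sets, in 5.43% of tested genes and in 7.33% of all windows. The serum response element was found in 1 fallen gene (1.22% of tested genes and 1.64% of all windows). These are descriptions of letters in fixed windows, with no test.

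**Figure D2:**
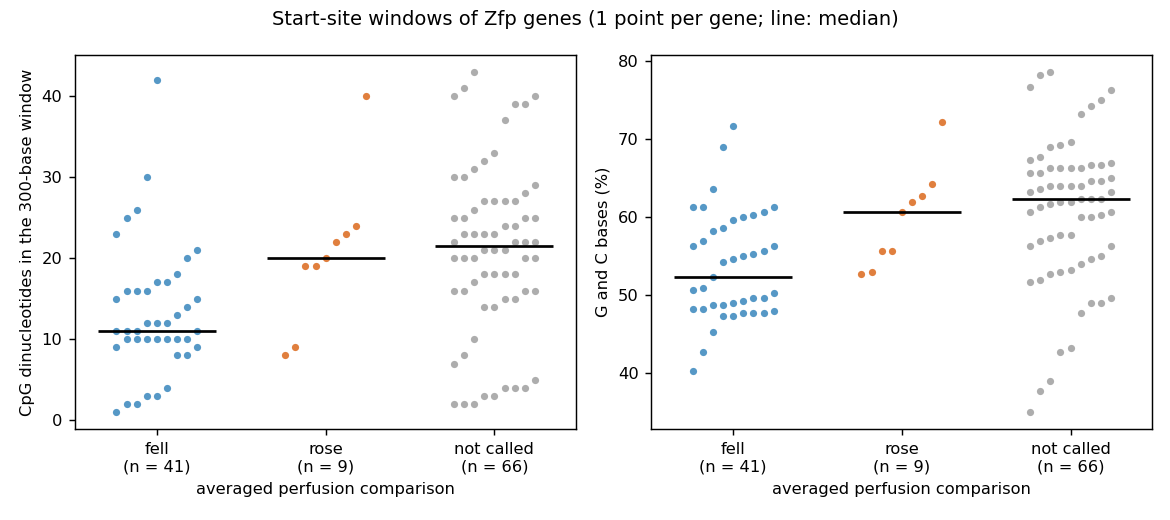
CpG dinucleotides (left) and percent G and C bases (right) in the 300-base start-site window of each Zfp gene, by its call in the averaged perfusion comparison, with 1 point per gene and the median as a line. The 41 fallen genes have a median of 11 CpG dinucleotides against 21.5 for the 66 genes not called.

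Zfp472 had the largest fall in every comparison. Its 5 values were -2.76, -3.11, -3.13, -2.84 and -2.89 in chow non-perfused hearts, -4.73, -4.95, -4.33, -4.84 and -4.18 with mannitol, and -5.00, -4.81, -5.04, -4.53 and -4.94 with glucose. In sucrose-fed rats they were -2.91, -3.25, -2.84, -2.82 and -2.61 without perfusion, -4.70, -4.74, -4.47, -4.47 and -5.07 with mannitol, and -5.09, -5.55, -3.37, -4.72 and -4.49 with glucose. Every perfused value lay below every non-perfused value, and sucrose glucose replicate 3 was the highest perfused one. The fall was 3.16-fold, 3.78-fold, 3.49-fold and 3.38-fold (-1.66, -1.92, -1.80 and -1.76, SE 0.25 in each, largest adjusted p = 2.2e-05). The probe was well above background on all 10 non-perfused arrays but on 2 of 5 chow glucose arrays and on 4 of 5 in the other perfused groups. Signal near background therefore limits its fold with chow glucose. The calls of Zfp472 held under every alternative that included the gene and without any single array.

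Zfp94, whose start-site window is the second shown above, fell 2.20-fold, 2.17-fold, 2.61-fold and 2.07-fold (-1.14, -1.12, -1.38 and -1.05, SE 0.15). In chow hearts its values were -2.31, -2.36, -2.54, -2.80 and -2.37 without perfusion, -3.77, -3.60, -3.32, -3.69 and -3.69 with mannitol and -3.34, -3.82, -3.73, -3.44 and -3.63 with glucose. In sucrose hearts they were -2.47, -2.59, -2.50, -2.53 and -2.34, then -3.86, -3.55, -3.51, -4.21 and -4.21, then -3.40, -3.79, -3.10, -3.52 and -3.87. Perfused and non-perfused values did not overlap in either diet, while mannitol and glucose values did. The sucrose glucose call ended in the authors' values.

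Zfp35 fell 1.90-fold, 2.04-fold, 2.18-fold and 2.37-fold (-0.93, -1.03, -1.12 and -1.25, SE 0.19). Its probe was well above background on 4 of 5 arrays in each non-perfused group and with chow mannitol. It was so on 3 of 5 arrays in each sucrose perfused group and on 2 of 5 with chow glucose. Signal near background therefore limits the folds of Zfp35. Its chow values ran from -4.00 to -3.47 without perfusion, from -5.30 to -4.40 with mannitol and from -5.54 to -4.25 with glucose, and its sucrose values from -3.78 to -3.46, from -5.03 to -4.49 and from -5.19 to -4.69. No perfused value reached the non-perfused range. Zfp518a fell 1.63-fold to 1.76-fold (-0.71 to -0.81, SE 0.15), and its sucrose glucose replicate 3, at -1.81, lay within the sucrose non-perfused range of -2.04 to -1.52. In the authors' values the calls of both genes in single perfused groups ended, as did the averaged call of Zfp35, and with normexp those of Zfp35 in chow.

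**Figure D3:**
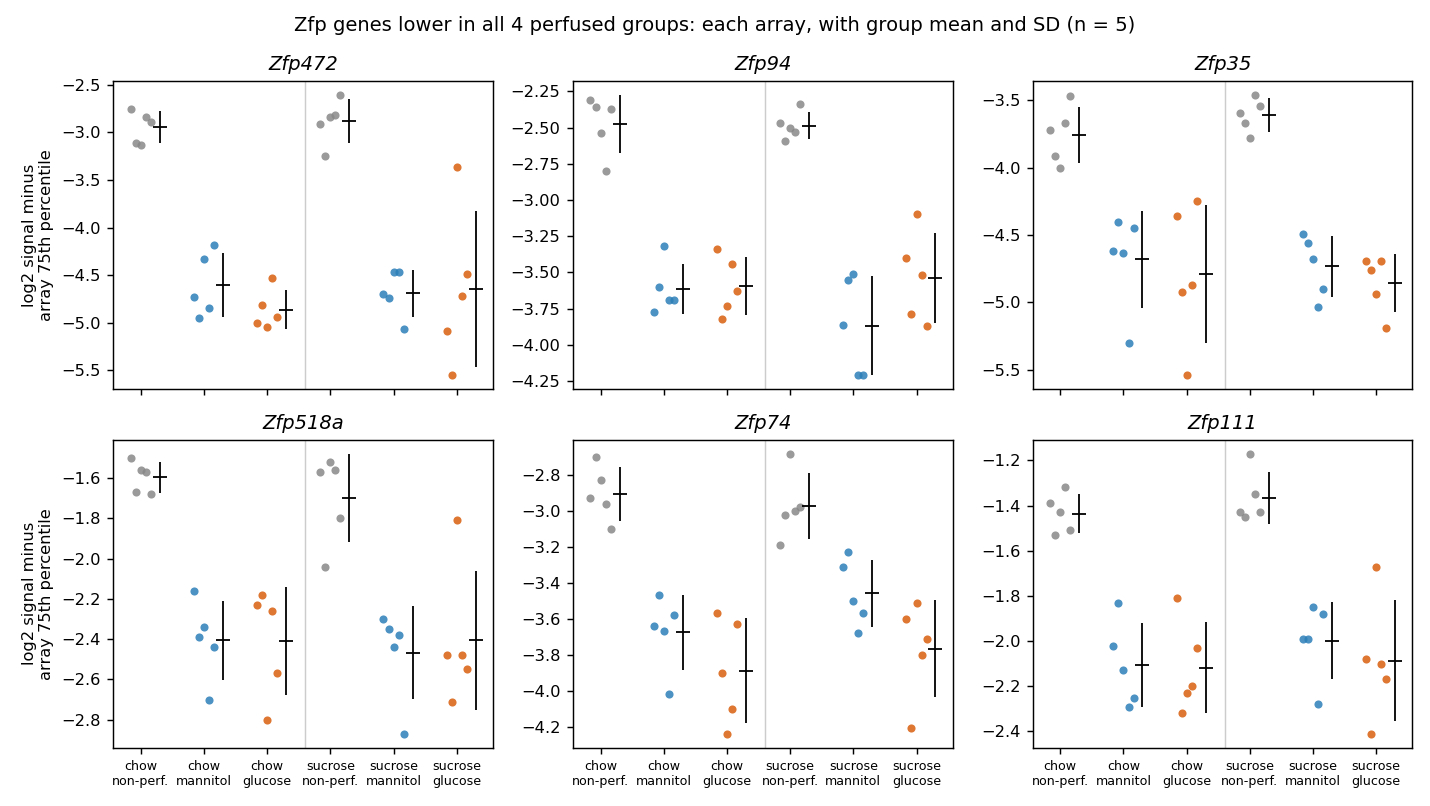
Log2 signal minus the array's 75th percentile on each of 30 arrays for 6 Zfp genes that fell in all 4 perfusion comparisons (grey non-perfused, blue mannitol, orange glucose; black bars are the group mean and SD, n = 5). The non-perfused arrays of both diets stand above the perfused arrays, apart from Zfp518a in sucrose glucose replicate 3.

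A set of 17 Zfp genes fell in each of the 4 comparisons, while 252 of the 18333 genes (1.37%) did so. Beside Zfp472, Zfp94, Zfp35 and Zfp518a they were Zfp46, Zfp74, Zfp84, Zfp105, Zfp111, Zfp133, Zfp397, Zfp422, Zfp524, Zfp629, Zfp637, Zfp689 and Zfp955a, named after their values were seen. Zfp422, also known as Krox-26 and studied in tooth development, had the smallest averaged fall (-0.31, SE 0.05) and Zfp74 the largest of these 13 (-0.76, SE 0.08, 1.69-fold). The group means of Zfp74 were -2.90 ± 0.15, -3.67 ± 0.21 and -3.89 ± 0.29 in chow and -2.97 ± 0.19, -3.46 ± 0.19 and -3.77 ± 0.27 in sucrose hearts (SD, n = 5, in the order non-perfused, mannitol, glucose). Zfp111 had -1.44 ± 0.09, -2.10 ± 0.19 and -2.12 ± 0.20 in chow and -1.37 ± 0.11, -2.00 ± 0.17 and -2.09 ± 0.27 in sucrose hearts. For Zfp74 and Zfp111 the ranges of perfused and non-perfused values did not overlap. Zfp46 fell 1.35-fold in the averaged comparison with its brightest probe (-0.43, SE 0.06), which was above background on all 30 arrays. With its probes averaged the call ended and the sucrose mannitol change was 0.06. The further probe was above background on only 1 to 4 of 5 arrays by group. The sucrose mannitol call of Zfp105 ended on leaving out any 1 of 18 arrays and that of Zfp422 any 1 of 7. Leaving out 1 array also ended the sucrose mannitol calls of Zfp74 (sucrose non-perfused replicate 3 or sucrose mannitol replicate 4), Zfp637 (sucrose non-perfused replicate 5 or sucrose mannitol replicate 4) and Zfp629 (sucrose mannitol replicate 2). It ended the sucrose glucose calls of Zfp422 (any 1 of 4 arrays) and Zfp629 (any 1 of 6) and the chow mannitol call of Zfp46 (any 1 of 3), while the averaged calls of these genes held without any 1 array.

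Zfp799 fell 2.20-fold in the averaged comparison (-1.14, SE 0.18). Its probe was above background on 28 of 30 arrays, and a further probe fell by 1.40 on the log2 scale (SE 0.12). A second set of falls was of transcripts often not above background in perfused hearts, so the averaged differences in their measured log2 signal are given with no fold. Zfp54 differed by -1.21 (SE 0.25), Zfp9 by -1.02 (SE 0.27) and Zfp458 by -1.02 (SE 0.20), with 13, 12 and 13 of 30 arrays above background, and Zfp867 by -1.06 (SE 0.23) with 18. Zfp54, Zfp9, Zfp458, Zfp418 and Zfp322a entered the tests only through 4 of 5 arrays of the chow non-perfused group, a group where they are high, so their falls are a description and support nothing about the family. Zfp322a, whose mouse counterpart supports pluripotency in stem cells, was above background on 0 of 5 arrays with chow glucose and on 0 of 5 with sucrose mannitol. The averaged calls of these 7 genes held on leaving out any 1 array, and those of Zfp867, Zfp9, Zfp458 and Zfp322a ended in the authors' values.

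Zfp418, a KRAB gene, was not well above background on any glucose array of either diet. Its folds with glucose were therefore computed with glucose values raised to the lowest flagged level of their array. They were 1.63 in chow and 2.09 in sucrose hearts (limma adjusted p of the measured change 0.0138 and 0.00322). Non-perfused arrays not above background entered these folds too. As the gene passed the filter through chow non-perfused hearts alone, both falls are a description. Its values were -4.61, -5.74, -4.29, -4.80 and -4.73 in chow non-perfused and -6.09, -7.03, -5.64, -5.04 and -6.15 in chow glucose hearts, which overlapped. In sucrose hearts they were -5.44, -4.44, -4.52, -4.15 and -4.85 without perfusion and -5.69, -6.19, -5.77, -6.29 and -6.38 with glucose, with no overlap. The chow glucose call ended without chow glucose replicate 2 (adjusted p = 0.0611). Computed in the same way, Zfp322a fell 1.45-fold with chow glucose (adjusted p of the measured change 0.0497). This too is a description, and the call ended on leaving out any 1 of 23 arrays. Quantile normalization and the authors' values ended both glucose calls of Zfp418.

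In at least 1 of the 4 comparisons 10 of the 141 Zfp genes rose, near the 8.07% of all genes that did (1479 of 18333), and 0 were called in opposite directions. Zfp281, a factor that binds GC-rich promoters and acts in the exit from pluripotency, was the only Zfp gene to rise in all 4, as 594 of the 18333 genes (3.24%) did. Its values were -0.33, -0.48, -0.71, -0.16 and -0.34 in chow non-perfused hearts, 0.42, 0.20, 0.28, 0.12 and 0.28 with mannitol and 0.30, 0.18, 0.47, 0.58 and 0.41 with glucose. In sucrose hearts they were -0.28, -0.21, -0.56, -0.14 and -0.74 without perfusion, 0.49, 0.26, 0.45, 0.42 and 0.29 with mannitol and 0.15, 0.30, -0.02, 0.41 and 0.14 with glucose. Every perfused value exceeded every non-perfused one. The rise was 1.59-fold, 1.73-fold, 1.70-fold and 1.50-fold (0.66, 0.79, 0.77 and 0.58, SE 0.11), and its calls with chow mannitol and sucrose glucose ended in the authors' values.

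Zfp217, known from breast tumours as an amplified gene whose protein joins co-repressor complexes, had the largest averaged rise (0.86, SE 0.13), with rises of 1.86-fold with chow mannitol and 2.41-fold with chow glucose (0.89 and 1.27, SE 0.21). In sucrose hearts it was 1.43-fold higher with mannitol (adjusted p = 0.132) and rose 1.69-fold with glucose (0.76, adjusted p = 0.0227). Its values were -5.02, -5.31, -5.02, -5.24 and -4.86 in chow non-perfused, -4.00, -3.85, -3.99, -4.81 and -4.35 in chow mannitol and -4.42, -4.08, -4.02, -2.73 and -3.86 in chow glucose hearts. In sucrose hearts they were -4.74, -4.96, -5.08, -4.49 and -5.15, then -4.43, -4.39, -4.44, -4.24 and -4.34, then -3.75, -4.21, -4.35, -4.22 and -4.10, and within a diet perfused and non-perfused values did not overlap. Leaving out replicate 3 or 5 of the sucrose non-perfused or replicate 1 of the sucrose glucose hearts ended the last call (adjusted p up to 0.075), and the calls in single groups ended with normexp and in the authors' values.

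Zfp655, which encodes a partner of the signalling adaptor Vav, rose 1.29-fold, 1.32-fold and 1.24-fold (0.36, 0.40 and 0.32, SE 0.08) with chow mannitol, chow glucose and sucrose mannitol, and was 1.17-fold higher with sucrose glucose (adjusted p = 0.0731). Its 10 non-perfused values lay between -0.12 and 0.16, and its perfused values between 0.17 and 0.49 apart from -0.06 in sucrose glucose replicate 3. Zfp112 rose with chow mannitol alone among the 4 (0.42, SE 0.11), and this call ended without chow non-perfused replicate 1 (adjusted p = 0.0516). With sucrose mannitol Zfp37 had the largest rise of any Zfp gene (0.85), a call that ended on leaving out any 1 of 6 arrays. Zfp37 (0.48, SE 0.16), Zfp653 (0.26, SE 0.06) and Zfp868 (0.30, SE 0.08) rose in the averaged comparison, and all 3 calls ended in the authors' values. That of Zfp37 also ended on leaving out replicate 2 or 3 of the chow or replicate 2 or 5 of the sucrose non-perfused hearts (adjusted p up to 0.0652).

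**Figure D4:**
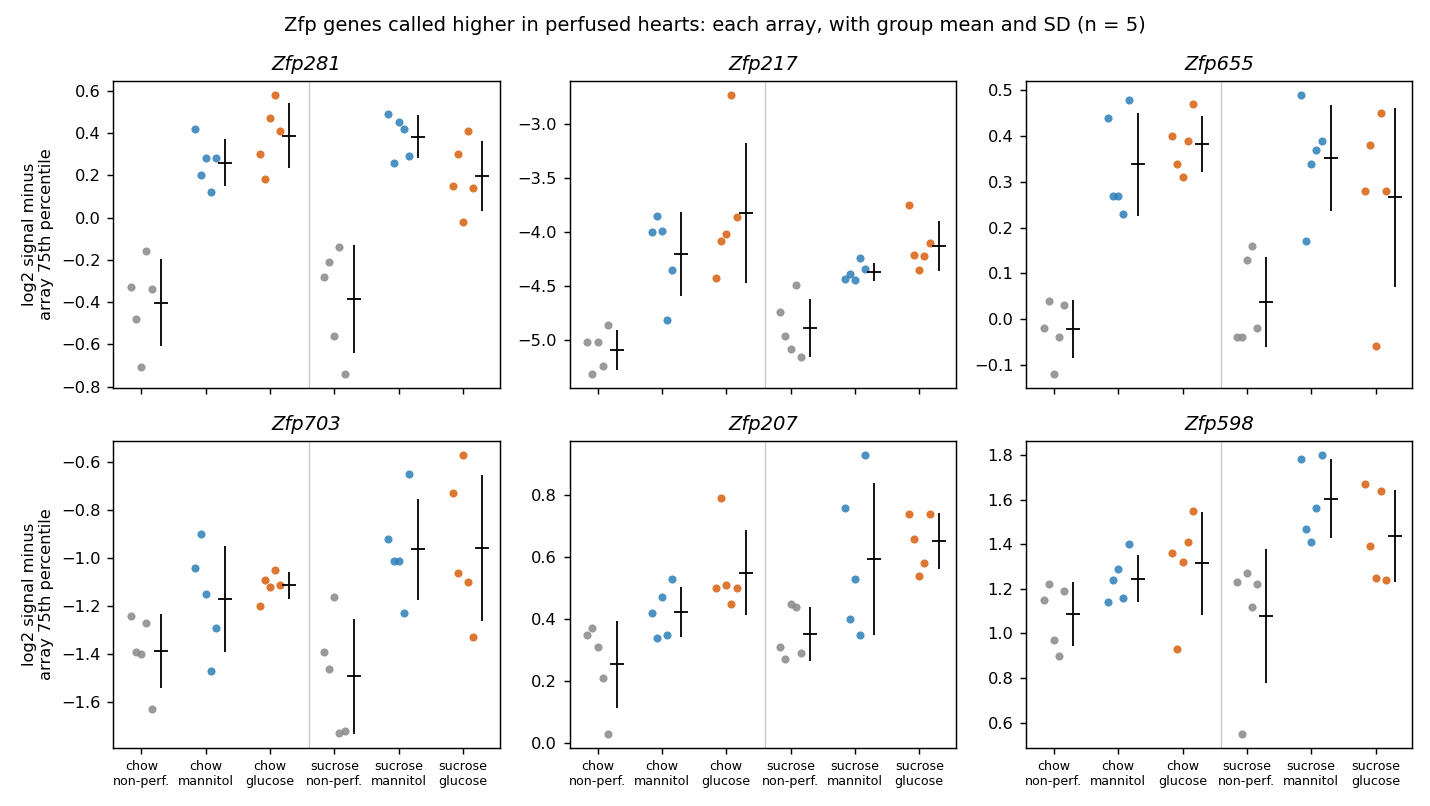
Log2 signal minus the array's 75th percentile on each of 30 arrays for 6 Zfp genes with called rises (grey non-perfused, blue mannitol, orange glucose; black bars are the group mean and SD, n = 5). Zfp281 and Zfp217 separate perfused from non-perfused arrays in both diets, while Zfp703, Zfp207 and Zfp598 overlap in part of the comparisons.

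By known role, the promoter-binding members moved in different directions. Of 10 listed, 8 were tested, and in the averaged comparison 2 rose and 2 fell (background 10% and 12.3%), with a median of 0.02. Zfp281 and Zfp131 rose (0.70 and 0.15), the latter with a call that ended on leaving out any 1 of 22 arrays. Zfp143, an activator of promoters of small nuclear RNAs and of many coding genes, fell 1.20-fold (-0.26, SE 0.05). Zfp64, which binds the promoter of the histone methyltransferase gene Kmt2a, fell 1.36-fold (-0.44, SE 0.08). Zfp148 (0.03, SE 0.06), Zfp219 (0.02, SE 0.06), Zfp384 (0.01, SE 0.10) and Zfp410 (-0.13, SE 0.10) were not called. The averaged calls of Zfp131 and Zfp143 ended in the authors' values.

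Of 10 members that act on RNA, ribosomes, the spindle or as ubiquitin and SUMO ligases, 7 were tested. In the averaged comparison 2 rose and 0 fell (background 10% and 12.3%). Zfp598, a ubiquitin ligase that senses collided ribosomes, rose 1.25-fold (0.32, SE 0.08) and, of the 4 groups, passed the threshold with sucrose mannitol only (1.44-fold, SE 0.13). Both rises use sucrose non-perfused replicate 2, which was 0.55 against 1.12 to 1.27 on the other arrays of its group. Zfp207, which loads the checkpoint protein Bub3 on kinetochores, rose 1.19-fold (0.25, SE 0.06). Zfp622, a ribosome assembly factor, differed by 0.02 (SE 0.06, adjusted p = 0.843), the SUMO ligase gene Zfp451 by -0.14 (SE 0.07), the ubiquitin ligase gene Zfp91 by -0.07 (SE 0.06), Zfp385a by 0.12 (SE 0.06) and Zfp830 by -0.07 (SE 0.07), and none of these 5 was called. The averaged calls of Zfp598 and Zfp207 ended in the authors' values.

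Of 11 members with roles in heart, muscle, fat or nerve differentiation 8 were tested. In the averaged comparison 1 rose and 2 fell (background 10% and 12.3%). Zfp703, a Groucho-binding repressor, rose 1.31-fold (0.39, SE 0.08), and by group with sucrose mannitol (0.53) and sucrose glucose (0.54), each overlapping the non-perfused values. Its further probes had averaged changes of 0.31 (SE 0.14) and 0.30 (SE 0.18). Zfp260, a partner of GATA4 in cardiomyocytes, fell 1.21-fold (-0.27, SE 0.09, adjusted p = 0.0352), with values by group from -0.39 to -0.14 of which 0 passed, and the averaged call ended on leaving out any 1 of 5 non-perfused arrays (replicates 1, 2 and 3 of chow, 1 and 4 of sucrose). Zfp467, which favours fat over bone cells, fell 1.23-fold (-0.29, SE 0.08). All 3 averaged calls ended in the authors' values. Zfp503 (0.27, SE 0.10, adjusted p = 0.0512), Zfp521 (-0.27, SE 0.15), Zfp516, an activator of thermogenic genes (-0.03, SE 0.19), Zfp746, a repressor of the PGC-1alpha gene (0.01, SE 0.11), and Zfp609 (-0.05, SE 0.15) were not called.

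Of 4 members that guard imprints or silence retroelements, Zfp57 and Zfp445 had probes. Zfp57 was above background on 5 of 30 arrays and was not tested. Zfp445 had an averaged change of -0.15 (SE 0.07, adjusted p = 0.132) with its brightest probe.

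Proteins that carry out silencing through the KRAB domain form a list of 25 genes, of which 14 were tested. In the averaged comparison 1 rose and 1 fell (background 10% and 12.3%), with a median of 0.01. Hdac1, a histone deacetylase, rose 1.21-fold (0.27, SE 0.06), and Cbx5, which encodes the heterochromatin protein HP1alpha, fell 1.19-fold (-0.25, SE 0.07). Trim28 itself differed by 0.10 (SE 0.05, adjusted p = 0.184) and Setdb1, the methyltransferase it recruits, by 0.09 (SE 0.11). Smarcad1 was lower without passing the threshold (-0.58, SE 0.23, adjusted p = 0.0749). In the related family of Zbtb genes, whose fingers come with a BTB domain, 6 of 30 rose and 5 fell in the averaged comparison (background 10% and 12.3%), with a median of -0.02. Of the smaller zinc finger families by symbol, 2 of 2 Znf, 2 of 3 Zkscan and 1 of 2 Zscan genes fell and 0 rose. Their medians were -0.73, -0.17 and -0.09, so lower transcripts were not confined to Zfp symbols.

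Perfusion changes could be set side by side between diets, which share no array within a buffer. Across the 141 Zfp genes the correlation of chow with sucrose changes was 0.79 with mannitol and 0.82 with glucose, a description only, since genes of an array share its scaling. In at least 1 of the 4 comparisons 42 of the 141 Zfp genes fell, against 8.84% of all genes. Called in none of the 4 comparisons were 89 of the 141 Zfp genes and 83.1% of all genes. The test of the difference itself, diet by perfusion with both buffers pooled, called 0 Zfp genes and 0 genes in all (limma), with 5 Zfp genes under an unadjusted p of 0.05 (3.55%, against 3.8% of all genes). Zfp579 had the smallest p there (0.53, 95% interval 0.14 to 0.92, adjusted p = 0.999).

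**Figure D5:**
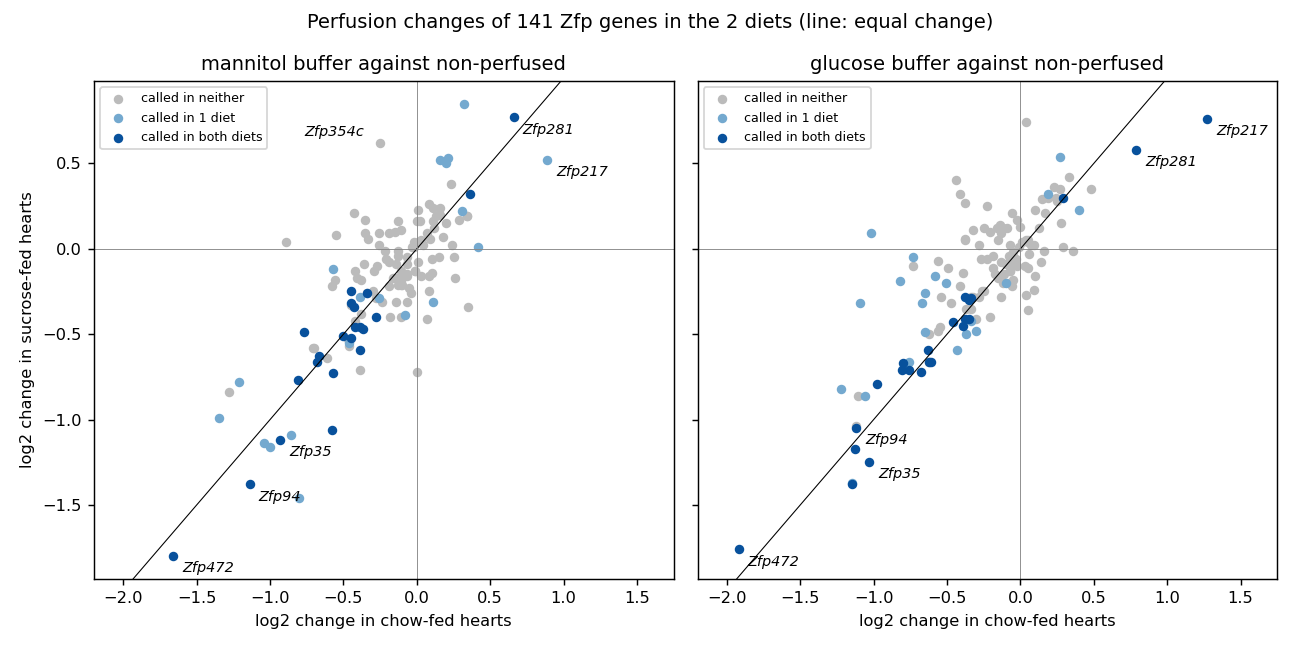
Log2 change of 141 Zfp genes with perfusion in chow-fed (x axis) and sucrose-fed hearts (y axis), for mannitol (left) and glucose buffer (right), coloured by the number of diets in which the gene was called. Genes called in both diets moved the same way in both, from Zfp472 at the lower left to Zfp281 and, with glucose, Zfp217 at the upper right, and the line marks equal change.

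Glucose was compared with mannitol within each diet to ask what the sugar adds to perfusion. No Zfp gene was called (limma), as 0% of all genes in chow and 0.00545% (1 gene) in sucrose hearts were, and 8 and 12 Zfp genes had an unadjusted p under 0.05 (5.67% and 8.51%, against 3.9% and 5.06% of all genes). The smallest p was that of Zfp354c in sucrose hearts. This KRAB repressor, first studied in bone-forming cells, had values of -5.14, -4.89, -3.90, -4.72 and -3.02 with mannitol and -5.47, -5.85, -5.77, -5.63 and -5.37 with glucose, which did not overlap (as for 0.213% of all genes in that direction). It was 2.43-fold lower with glucose (-1.28, SE 0.25, adjusted p = 0.207), and was above background on 3 of 5 arrays in each group.

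The Zfp354c difference passed the threshold with slide as a fixed block (-1.49, adjusted p = 0.0108) or a random block (-1.33, adjusted p = 0.0313), and without sucrose mannitol replicate 1, the array alone on its slide (-1.48, adjusted p = 0.0186). It was -0.95 (adjusted p = 0.237) without the 4 arrays of high control spread, which include the highest mannitol value, and -0.26 with normexp. In chow hearts the values were -5.41, -5.04, -5.42, -4.99 and -5.03 with mannitol and -5.51, -5.86, -5.64, -5.27 and -5.45 with glucose. The glucose differences of the diets differed by -0.91 (SE 0.35, adjusted p = 0.984), which did not pass. In chow the smallest p-values were those of Zfp112 (-0.35, 95% interval -0.57 to -0.12), Zfp189 (-0.44, -0.76 to -0.13) and Zfp347 (-0.26, -0.45 to -0.06), each with an adjusted p of 0.999.

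The sucrose diet was compared with chow in each state. With mannitol, the chow hearts lie in slide row 1 and 4 of 5 sucrose hearts in row 2, so diet and row cannot be told apart there. No Zfp gene was called (limma, against 0%, 0.00545% and 0% of all genes in non-perfused, mannitol and glucose hearts). Unadjusted, 1, 11 and 9 Zfp genes had p under 0.05, or 0.709%, 7.8% and 6.38%, where 3.34%, 7.94% and 4.39% of all genes did. In non-perfused hearts the 1 gene was Zfp18 (-0.33, 95% interval -0.63 to -0.02, adjusted p = 1). With mannitol Zfp787 had the smallest p (-0.33, interval -0.50 to -0.16, adjusted p = 0.306), then Zfp579 (0.57, 0.25 to 0.88). With glucose Zfp367 was 1.57-fold higher in sucrose hearts (0.65, interval 0.22 to 1.08, adjusted p = 0.999) and Zfp386 1.24-fold higher (0.31, 0.10 to 0.52).

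Probes of the same gene gave different changes in part of the genes. In 27 Zfp genes several probes were above background on 4 or 5 arrays of at least 1 group. Of these genes 18 had changes of 1 sign in the averaged comparison and 9 of both signs. In 4 genes, chosen after their values were seen, a dimmer probe was called while the brightest was not. For Zfp39 the brightest probe had an averaged change of -0.16 (SE 0.11) and the other fell by 1.68 (SE 0.19), from -3.82 ± 0.16 to -5.47 ± 0.45 with chow mannitol and -5.49 ± 0.50 with chow glucose (SD, n = 5). This dimmer probe was above background on 4 of 5 chow mannitol arrays, but on 1 of 5 with chow glucose and 2 of 5 in each sucrose perfused group. Signal near background therefore limits the size of its fall. Both probes of Zfp39 carry the same transcript accession. The further probe of Zfp445 fell by 0.51 (SE 0.10), and the further probes of Zfp593 and Zfp496 rose (0.34, SE 0.10, and 0.35, SE 0.13) where the brightest had -0.13 and -0.02. Zinc finger genes share similar coding sequences, and whether a probe also binds a related transcript was not tested.

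By position, 37 of the 141 Zfp genes lie on chromosome 1 (26.2%, against 13.4% of tested genes with a symbol and a position), and 17 of them fell and 0 rose in the averaged comparison, where 15.2% of all genes of that chromosome fell and 10.9% rose. Chromosomes 10, 4 and 7 held 15, 12 and 10 Zfp genes, of which 6, 6 and 5 fell and 2, 0 and 0 rose, against 15.4%, 16% and 13.1% of all their genes that fell and 12.1%, 12.3% and 11.9% that rose. Of 15 pairs of Zfp genes that are direct neighbours in the gene order of GRCr8, both partners were called in 2. These were Zfp61 and Zfp94 (-0.38 and -1.17) on chromosome 1, the former called only with both chow non-perfused replicate 4 and sucrose non-perfused replicate 2 in the fit, and Zfp398 and Zfp282 (-0.38 and -0.32) on chromosome 4. In pairs such as Zfp35 with Zfp24 (-1.08 and -0.10) and Zfp867 with Zfp496 (-1.06 and -0.02) 1 partner was called. Outside the family, the genes whose 6 group means followed those of Zfp472 most closely were the globin gene Hba-a3 (r = 0.998), Atg14 (0.997) and Mfsd9 (0.997), over 6 points that mainly contrast perfused with non-perfused hearts.

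The 16 Zfp genes with a probe that were not tested were Zfp2, Zfp26, Zfp57, Zfp286a, Zfp287, Zfp352, Zfp382, Zfp385b, Zfp475, Zfp483, Zfp494, Zfp563, Zfp763, Zfp800, Zfp819 and Zfp949. Of these 6 reached 3 arrays above background in their best group, 8 reached 1 or 2, and Zfp385b and Zfp475 reached 0 on every array. Just inside the threshold, 22 of the tested genes had 4 arrays above background in their best group and 119 had 5.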

How the data were processed

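The deposited files are 30 one-colour Agilent arrays. Per the file headers the authors' Feature Extraction software (11.0.1.1; the submitters' processing notes name 10.3) wrote a background-subtracted processed intensity per spot with flags for well above background, and no scaling between arrays. The deposited series table holds log2 values of the same arrays, which followed the log2 background-subtracted signal (smallest correlation over arrays 0.9985), with the scaling between arrays not given in the sources used here. Spots of a probe were averaged, converted to log2 and set relative to their array's 75th percentile. Probes were named through their accession (18355 of 30367, 60.4%). Normexp (offset 50) used the median foreground signal, since the spot tables used here list no mean foreground.

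Comparisons were fitted with limma 3.58.1 (R 4.3.3) (6 group means, median total degrees of freedom 26.3), p-values adjusted by Benjamini-Hochberg over all 18333 genes tested. Its p-values come from this model, and n = 5 per group limits the precision. The members, gene lists and naming rule were chosen with earlier results of these data known. Named were the largest changes, the smallest p-values where nothing passed, the role lists, probes that disagree, and neighbours both called. Zfp genes that fell in 3 or 4 comparisons or rose in any were added after their values were seen. The brightest and dimmest genes were left out because probe levels cannot be compared, and protein classes were not analysed here. Sequences and gene order come from RefSeq tables of assembly GRCr8. Alternatives were quantile normalization, normexp, the authors' values, other filters, averaged probes, blocks for slide or for replicate number, fits on 2 groups alone, eBayes with trend and robust, each array left out, and noisy or lone arrays left out. The main fit did not pair samples by replicate number. The mean residual correlation was -0.037 between same-numbered arrays, 0.010 between differently numbered ones and 0.204 within a slide. Whether same-numbered samples were handled together cannot be told from these values. One marker list is not reported here.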

Additional observations from a re-analysis of the deposited data

Results flagged for a closer look

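In 20 Zfp genes, those with the largest averaged changes or the largest called rises or falls in a single comparison, each of the 120 groups of 5 arrays was searched for an array apart from the other 4 by more than 0.71 of the group's range, and 9 were found. Chance alone flags about 1 in 20 such groups. Zfp54 in chow mannitol replicate 3 was -3.74 against -6.87 to -6.13 on the other 4 arrays. Zfp799 was -0.15 in sucrose non-perfused replicate 1 (others -2.01 to -1.54), an array of high control spread, and -1.75 in sucrose glucose replicate 3 (others -2.97 to -2.73). Zfp35 was -5.30 in chow mannitol replicate 4 (others -4.63 to -4.40). Zfp9 was -1.88 in sucrose non-perfused replicate 2 (others -5.81 to -4.69). Zfp518a was -2.87 in sucrose mannitol replicate 5 (others -2.44 to -2.30) and -1.81 in sucrose glucose replicate 3 (others -2.71 to -2.48). Zfp207 was 0.79 in chow glucose replicate 2 (others 0.45 to 0.51), and Zfp598 was 0.55 in sucrose non-perfused replicate 2 (others 1.12 to 1.27).

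Sucrose glucose replicate 3 was the highest of its 5 arrays for 20 of the 49 Zfp genes that fell in the averaged comparison, with a median change of -0.33 against -0.45 to -0.52 on the other 4. Chow glucose replicate 1 was the highest of its group for 21 of the 49 (median -0.38, others -0.50 to -0.65). Without sucrose glucose replicate 3, 32 Zfp genes were called with sucrose glucose, 26 of them falls, against 31 and 26 with it.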

How the results depend on the processing

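The number of Zfp genes called, with chow before sucrose, mannitol before glucose and the averaged comparison last, was 29, 36, 34, 31 and 60. It was 2, 7, 3, 1 and 19 in the authors' deposited values, 17, 18 and 20 with normexp in the first 3, 21 with chow glucose when above background on all 30 arrays was required (89 genes left), and 20 with sucrose mannitol without the 4 noisy arrays and the lone array, a choice made after the arrays were seen. The cause was not tested, beyond the smaller sets of genes and arrays. Glucose against mannitol in sucrose hearts called 1 Zfp gene in place of 0 with slide as a fixed or random block and without the lone array. On leaving out single arrays the 5 counts ran from 22 to 33, 26 to 39, 27 to 37, 24 to 33 and 55 to 62, glucose against mannitol in sucrose hearts from 0 to 1, and the other counts were 0 throughout. The authors' values shifted the median of all genes by 0.106 with sucrose glucose and by -0.139 for glucose against mannitol in chow, and moved the Zfp genes with it.

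Of 160 called changes of 68 named genes, 128 ended in the authors' values, 57 with normexp, 31 with only the compared groups, 28 without the 4 noisy arrays, 17 with quantile normalization and 12 with the replicate block, which changed no count of calls by over 1.5 times. On leaving out any 1 array 124 held, and 30 held under every alternative that included the gene. The sign reversed for Zfp46 with sucrose mannitol, at 0.06 with its probes averaged, of which the further was above background on 2 of 5 arrays there. Signal near background in perfused hearts limits folds of the dim genes.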
